A study of Rattus norvegicus with 20 samples.

Results

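The genes described here make, recycle or use glutathione, or are classical targets of the transcription factor NRF2 together with the gene of NRF2 itself. The 10 genes were Gclc, Gclm, Gss, Gsr, Gpx1, Gpx4, Nqo1, Txnrd1, Srxn1 and Nfe2l2, and every probe set to which the platform annotation gives exactly 1 of these symbols was taken. All 10 genes had at least 1 such probe set, and together they had 15 of the 31042 non-control probe sets on the array, on which 14217 genes are named by a single symbol. A probe set is a group of short oligonucleotides that gives 1 signal. Probe sets were taken by symbol and not by a measured value, but the 10 genes were listed with earlier results of these data known.

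Blood RNA of male Wistar rats was hybridized to 20 Affymetrix rat arrays, 5 in each of 4 groups. The sub-groups were rats with the lowest (resistant) and the highest (susceptible) serum alanine aminotransferase 24 h after acetaminophen (APAP), so each sub-group was defined by its liver injury. R and S are the resistant and susceptible rats before APAP, which carried no treatment, and RA and SA are the rats of the same sub-groups 24 h after 1 oral dose of 1200 mg/kg given after a 12 h fast. No array held blood of a rat given vehicle, and the labels do not say that equal replicate numbers in the predose and postdose groups are 1 rat. The methods put the predose bleed 1 week before dosing and name a different bleeding site for each time, whereas the sample labels name 1 site for both. A change between predose and postdose arrays therefore holds APAP, fasting, day and possibly bleeding site together, which cannot be told apart. According to the methods, red blood cells were lysed before the RNA was extracted. In RNA of the mixed cells that remain, fewer cells of a type and less RNA per cell also cannot be told apart.

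Glutathione is a tripeptide of glutamate, cysteine and glycine. Glutamate-cysteine ligase, made of a catalytic (Gclc) and a modifier (Gclm) subunit, joins the first pair of amino acids, and glutathione synthetase (Gss) adds glycine. Glutathione reduces peroxides through the glutathione peroxidases, is returned to its reduced form by glutathione reductase (Gsr) at the cost of NADPH, and binds the reactive quinone imine that the liver forms from APAP. NRF2, the product of Nfe2l2, is held and degraded through KEAP1 in resting cells, and electrophiles such as this quinone imine release it to bind antioxidant response elements near genes such as Nqo1, Txnrd1, Srxn1, Gclc and Gclm. Much of the control of NRF2 acts on the protein, which arrays do not measure.

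All 15 probe sets passed the filter on low signal in each comparison, and 3 of them had a mean signal under the array median of 1000, namely the weaker probe sets of Srxn1 and Gpx4. Signals are given as log2 of the intensity after each array was set to a median of 1000, and are compared only within a probe set. Markers of all leukocytes summed to 18.83 to 19.24 on the log2 scale on the 20 arrays, with none of the 4 near background, as blood should show. The summed signal of 7 neutrophil markers was 18.98 to 19.47 on R and 19.70 to 20.02 on RA arrays, and it was 18.95 to 19.38 on S against 19.80 to 20.46 on SA arrays. The sum of 7 natural killer cell markers was also higher postdose, 17.44 to 18.14 on R against 18.46 to 18.99 on RA arrays and 17.45 to 17.87 on S against 18.26 to 18.95 on SA arrays. The median B cell marker sum was lower postdose, 16.79 on R against 16.51 on RA and 16.77 on S against 16.36 on SA arrays. The median monocyte sum was 17.28 on R, 16.94 on RA, 17.29 on S and 17.03 on SA arrays. For T cells it was 18.97, 18.92, 18.94 and 18.8. Predose and postdose arrays of each sub-group overlapped in the B cell, monocyte and T cell sums. They did not overlap in the neutrophil and natural killer cell sums. Liver markers (8) summed to between 11.25 and 12.22 on the R, RA and S arrays and to between 11.91 and 14.85 on the SA arrays, where SA 3 (14.85), SA 1 (14.28) and SA 5 (12.89) were highest. Several of these marker sums moved with the postdose changes below, and the part of any of them in those changes was not tested unless a value is given.

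The promoters of Gclm, Nqo1 and Txnrd1 are shown because all 3 are known NRF2 targets and their signals differed: Nqo1 and Txnrd1 were higher postdose over both sub-groups together and Gclm did not pass the test. The sequences are the 250 bases before the annotated start in RefSeq for the assembly GRCr8, read 5′ to 3′ on the strand of the gene. Capitals mark a match to TGACNNNGC, the core letters of the antioxidant response element, searched on both strands. No other motif was searched. A match on the opposite strand appears as GCNNNGTCA.
Gclm (chr2:213031885-213032134, + strand): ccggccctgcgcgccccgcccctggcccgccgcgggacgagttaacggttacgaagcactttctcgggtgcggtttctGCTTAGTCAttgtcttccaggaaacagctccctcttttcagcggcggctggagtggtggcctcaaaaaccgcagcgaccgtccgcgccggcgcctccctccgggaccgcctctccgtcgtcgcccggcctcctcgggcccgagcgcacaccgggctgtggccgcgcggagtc
Txnrd1 (chr7:22755905-22756154, - strand): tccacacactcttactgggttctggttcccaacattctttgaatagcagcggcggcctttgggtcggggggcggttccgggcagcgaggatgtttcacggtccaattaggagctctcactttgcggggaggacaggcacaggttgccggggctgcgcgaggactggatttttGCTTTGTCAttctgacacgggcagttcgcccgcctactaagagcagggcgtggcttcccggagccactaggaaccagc
Nqo1 (chr19:52220268-52220517, - strand): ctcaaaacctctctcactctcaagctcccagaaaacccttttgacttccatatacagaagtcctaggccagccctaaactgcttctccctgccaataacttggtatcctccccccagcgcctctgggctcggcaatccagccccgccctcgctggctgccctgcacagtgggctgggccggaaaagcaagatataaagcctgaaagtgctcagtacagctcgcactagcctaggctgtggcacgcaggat
The Gclm and Txnrd1 sequences each held 1 match, both on the opposite strand, the first base being 172 and 78 bases before the start, respectively. Of the 2 windows of Txnrd1, the one shown is the one with a match. The other (chr7:22764852-22765101, - strand) held none. The Nqo1 sequence held none, which says only that these letters are not in this window. RefSeq windows of 300 bases, which add 50 bases after the start, were matched for 9 of the 10 genes, 12 windows in all, and 3 windows of 3 genes held the letters: Gclm, 1 of the windows of Txnrd1, and Nfe2l2 after its start. Of all 33469 windows of this length, 12.1% held them; the difference was not tested, and Gpx4 has 3 of the 12 windows and Txnrd1 has 2. A match is a string of letters and not a measured site of binding.

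Nqo1 had the smallest adjusted p for a postdose change of the 10 genes. It encodes NAD(P)H quinone dehydrogenase 1, an enzyme that reduces quinones and is among the standard readouts of NRF2. In resistant rats the log2 signal was 13.05, 13.31, 12.86, 13.15 and 12.20 on R arrays 1 to 5 and 13.64, 13.73, 13.41, 13.36 and 13.79 on RA arrays 1 to 5. In susceptible rats it was 13.00, 13.42, 12.67, 12.85 and 12.68 on S arrays 1 to 5 and 14.27, 13.66, 14.42, 13.87 and 13.72 on SA arrays 1 to 5. Every postdose array was above every predose array of its own sub-group, and R 5 was the lowest of all 20. The group means were 12.91 ± 0.43 (SD, n = 5) for R, 12.92 ± 0.31 for S, 13.59 ± 0.19 for RA and 13.99 ± 0.34 for SA, each of 5 arrays. The order of the 2 predose groups, and that of the 2 postdose groups, was within their spread.

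In susceptible rats Nqo1 was higher by 1.06 ± 0.21 (SE) on the log2 scale, 2.09-fold (95% interval 1.54 to 2.83), with a limma adjusted p of 0.00414. In resistant rats the difference was 0.67 ± 0.21, 1.59-fold (1.18 to 2.16), with an adjusted p of 0.0736, which missed the threshold of 0.05. Under quantile normalization the resistant value was 0.71 with an adjusted p of 0.0198, past the threshold. Over both sub-groups together the mean change was 0.87 ± 0.15 (adjusted p = 0.000566). The change in susceptible rats exceeded that in resistant rats by 0.39 ± 0.29 (95% interval -0.23 to 1.01, adjusted p = 0.855), so the sub-groups were not shown to differ in it. SA 1 and SA 3, the arrays with the highest liver marker sums, also had the highest Nqo1 signals. With both left out, 3 SA arrays remained, and the susceptible change was 0.83 with an adjusted p of 0.067, while the mean change was 0.75 with an adjusted p of 0.0039. Liver marker sums were 11.52 to 12.22 on R and 11.30 to 11.88 on RA arrays. Neutrophil and natural killer cell marker sums were higher postdose in both sub-groups, and the part of any of these in the Nqo1 change was not tested.

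**Figure D1:**
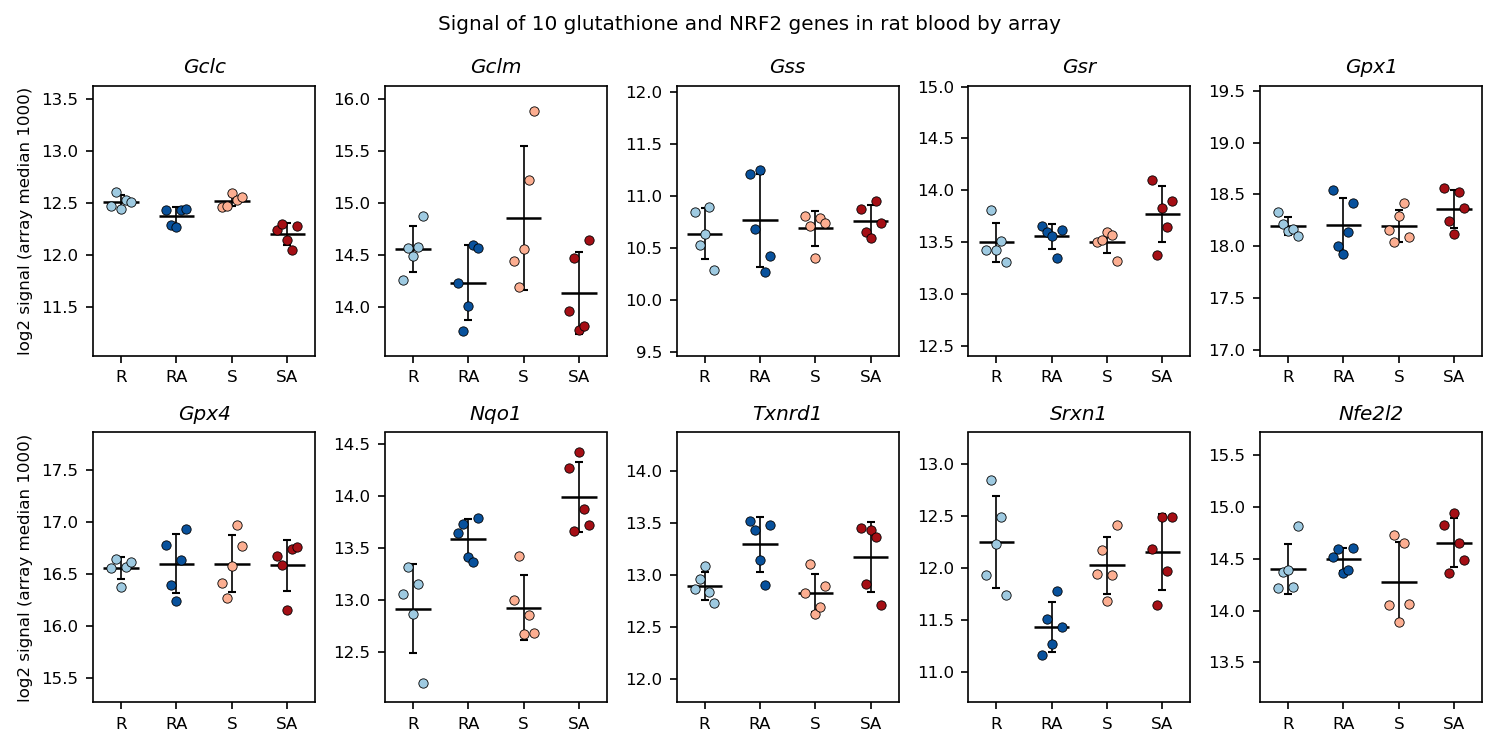
Log2 signal (array median set to 1000) of the brightest probe set of each of the 10 genes on the 20 arrays, by group: resistant predose (R) and postdose (RA), susceptible predose (S) and postdose (SA). Points are arrays, horizontal lines group means and bars 1 SD of 5 arrays; every panel spans the same log2 range, and Nqo1 is the panel in which both postdose groups clear their predose groups.

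**Figure D2:**
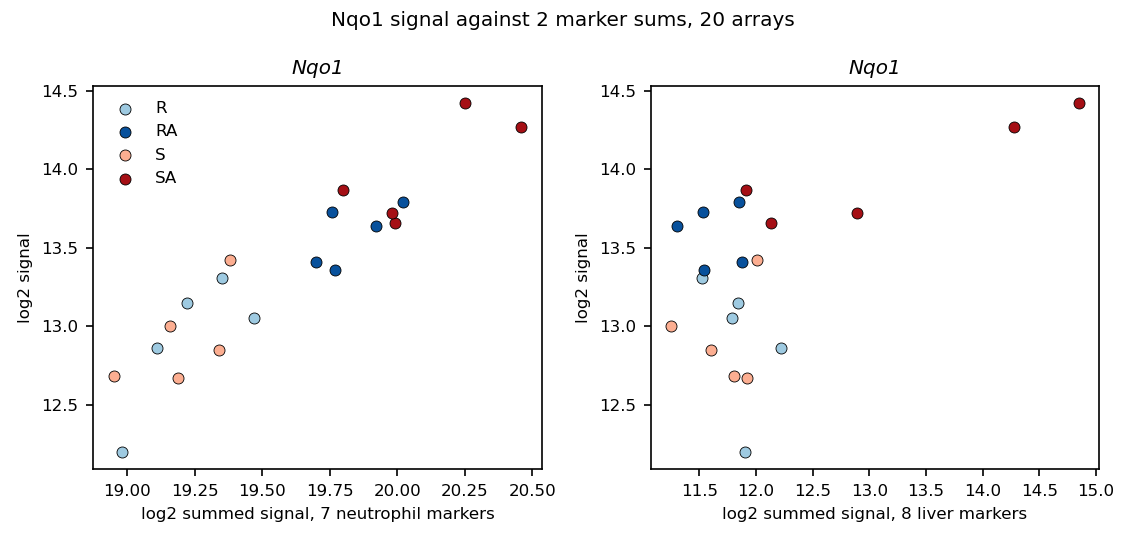
Log2 signal of Nqo1 on each of the 20 arrays against the log2 summed signal of 7 neutrophil markers (left) and 8 liver markers (right), coloured by group. Predose arrays lie at neutrophil sums up to 19.47 and postdose arrays from 19.70 up, while SA 1 and SA 3 stand alone at liver sums of 14.28 and 14.85.

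Txnrd1 was higher postdose over both sub-groups together. It encodes the cytosolic thioredoxin reductase, which keeps thioredoxin reduced with NADPH, and both of its probe sets were read. On the probe set 1386958_at the log2 signal was 10.39, 10.99, 10.79, 10.55 and 10.32 on R against 11.30, 11.16, 11.18, 10.79 and 11.03 on RA arrays. In susceptible rats the same probe set read 10.32, 11.04, 10.58, 10.58 and 11.07 on S against 11.31, 11.03, 11.40, 11.24 and 11.04 on SA arrays. The postdose arrays were mostly the higher ones, with overlap in both sub-groups: RA 4 lay below R 2, and SA 2 and SA 5 lay below S 5. The differences were 0.48 ± 0.16 (adjusted p = 0.108) in resistant and 0.49 ± 0.16 (adjusted p = 0.0885) in susceptible rats, and the mean change over both was 0.48 ± 0.12, 1.40-fold, with a limma adjusted p of 0.0086.

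The brighter Txnrd1 probe set, 1398791_at, read 12.86, 12.96, 13.08, 12.83 and 12.73 on R and 13.52, 13.43, 13.14, 12.90 and 13.48 on RA arrays. It read 12.82, 13.10, 12.62, 12.69 and 12.89 on S and 13.45, 12.91, 13.43, 13.36 and 12.71 on SA arrays. Each postdose group was split, with RA 4, SA 2 and SA 5 among the predose values and the other arrays above them all. The mean change was 0.37 ± 0.11, 1.29-fold (adjusted p = 0.0362), from 0.40 ± 0.16 (adjusted p = 0.183) in the resistant and 0.35 ± 0.16 (adjusted p = 0.243) in the susceptible sub-group. That call did not hold without R 1, R 4, R 5, S 1, S 3, S 4, RA 1, RA 2, RA 5, SA 1, SA 3 or SA 4, each left out alone, with values of 0.34 to 0.37 and adjusted p from 0.0551 to 0.07. Without SA 1 and SA 3 together it was 0.28 with an adjusted p of 0.15. The weaker-signal probe set 1386958_at passed without any single array, with adjusted p from 0.00456 to 0.0189.

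Srxn1, which encodes sulfiredoxin, the enzyme that restores over-oxidized peroxiredoxins, had a call in the other direction from Nqo1 and Txnrd1, in resistant rats. On its brightest probe set, 1372510_at, the log2 signal was 11.93, 12.85, 12.23, 12.49 and 11.74 on R and 11.16, 11.51, 11.27, 11.78 and 11.43 on RA arrays. In susceptible rats it was 11.94, 12.17, 11.68, 11.93 and 12.41 on S and 12.18, 11.64, 12.49, 11.97 and 12.49 on SA arrays. The RA arrays were the lowest group and overlapped R by a single pair, RA 4 above R 5, while S and SA lay over each other. Srxn1 fell by 0.81 ± 0.21 on the log2 scale in resistant rats, to 0.569 of the predose level (95% interval 0.416 to 0.777, limma adjusted p = 0.0334), and differed by 0.13 ± 0.21 in susceptible rats (adjusted p = 0.816). The difference between these changes was 0.94 ± 0.30 (95% interval 0.31 to 1.58), with an unadjusted p of 0.00613 and an adjusted p of 0.484 over all probe sets.

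The fall of Srxn1 in resistant rats did not hold without R 2, R 3, R 4, RA 1, RA 2, RA 3 or RA 5, each left out alone, with values from -0.66 to -0.83 and adjusted p from 0.062 to 0.0914, nor in a fit of the R and RA arrays alone (adjusted p = 0.0884) or under the test of the methods (adjusted p = 0.149). The second probe set, 1384331_at, had group means of 9.79 ± 0.58 (R), 9.49 ± 0.19 (RA), 9.58 ± 0.60 (S) and 9.65 ± 0.62 (SA) and differences of -0.30 ± 0.32 and 0.07 ± 0.32 (adjusted p = 0.721 and 0.943). The third, 1381067_at, lay near the bacterial trp control probe sets in R, S and SA, with values of 4.87 to 8.55 over all arrays. Its differences of 1.33 ± 0.70 in resistant and 0.40 ± 0.70 in susceptible rats did not pass the test (adjusted p = 0.351 and 0.824), and the point estimates of the 3 probe sets in resistant rats did not share a sign.

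Of the subunits of glutamate-cysteine ligase, Gclc was lower postdose and Gclm did not pass the test. Gclc, the catalytic subunit, had on 1372523_at log2 signals of 12.47, 12.60, 12.44, 12.53 and 12.51 on R and 12.43, 12.29, 12.27, 12.43 and 12.44 on RA arrays. In susceptible rats the signals were 12.46, 12.47, 12.59, 12.53 and 12.56 on S and 12.24, 12.30, 12.14, 12.05 and 12.28 on SA arrays. All 5 SA arrays lay under all 5 S arrays, and the 10 predose arrays spanned only 12.44 to 12.60. Gclc fell by 0.32 ± 0.08 in susceptible rats, to 0.802 of the predose level (95% interval 0.717 to 0.898, limma adjusted p = 0.0174). In resistant rats the difference was -0.14 ± 0.08 (adjusted p = 0.398), and the mean change was -0.23 ± 0.05 (adjusted p = 0.00904).

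The susceptible fall of Gclc was small, and its adjusted p was 0.0503 without SA 3 (change -0.30), 0.0508 under quantile normalization, 0.121 in a fit of S and SA alone, 0.0503 under the test of the methods and 0.103 without SA 1 and SA 3. The second Gclc probe set, 1370688_at, read 11.46, 11.01, 11.38, 11.20 and 11.23 on R and 11.02, 10.77, 11.16, 10.76 and 10.70 on RA arrays. It read 10.93, 11.34, 11.09, 11.19 and 11.04 on S and 11.19, 10.76, 10.77, 11.02 and 10.76 on SA arrays. Most postdose arrays were below most predose arrays, with overlap in both sub-groups. The differences were -0.38 ± 0.12 (adjusted p = 0.0991) and -0.22 ± 0.12 (adjusted p = 0.375), and the mean change of -0.30 ± 0.09 passed the test (adjusted p = 0.0332). That mean change was lost without R 1, R 3, S 2, S 4, RA 2, RA 4, RA 5, SA 2, SA 3 or SA 5, each left out alone, at -0.27 to -0.29 and adjusted p from 0.055 to 0.0645. Both probe sets of the gene were thus lower over the sub-groups together.

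Gclm, the modifier subunit, had its widest spread among the S arrays (SD 0.69). Its log2 signal was 14.26, 14.57, 14.49, 14.58 and 14.88 on R and 14.23, 13.77, 14.01, 14.60 and 14.57 on RA arrays. It was 14.44, 14.19, 14.56, 15.22 and 15.89 on S and 13.96, 14.47, 13.78, 13.82 and 14.65 on SA arrays. S 4 and S 5 were the highest of the 20, and pre- and postdose arrays overlapped in both sub-groups. The postdose difference was -0.32 ± 0.28 (adjusted p = 0.642) for resistant and -0.72 ± 0.28 (adjusted p = 0.147) for susceptible rats, neither past the test, nor did the mean change of -0.52 ± 0.20 (95% interval -0.94 to -0.11, adjusted p = 0.101). Gss, which completes the tripeptide, had group means of 10.64 ± 0.24 (R), 10.77 ± 0.45 (RA), 10.69 ± 0.17 (S) and 10.76 ± 0.15 (SA). Its differences of 0.13 ± 0.18 and 0.07 ± 0.18 (adjusted p = 0.799 and 0.884) left a 95% interval of -0.25 to 0.51 in resistant and of -0.30 to 0.45 in susceptible rats.

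**Figure D3:**
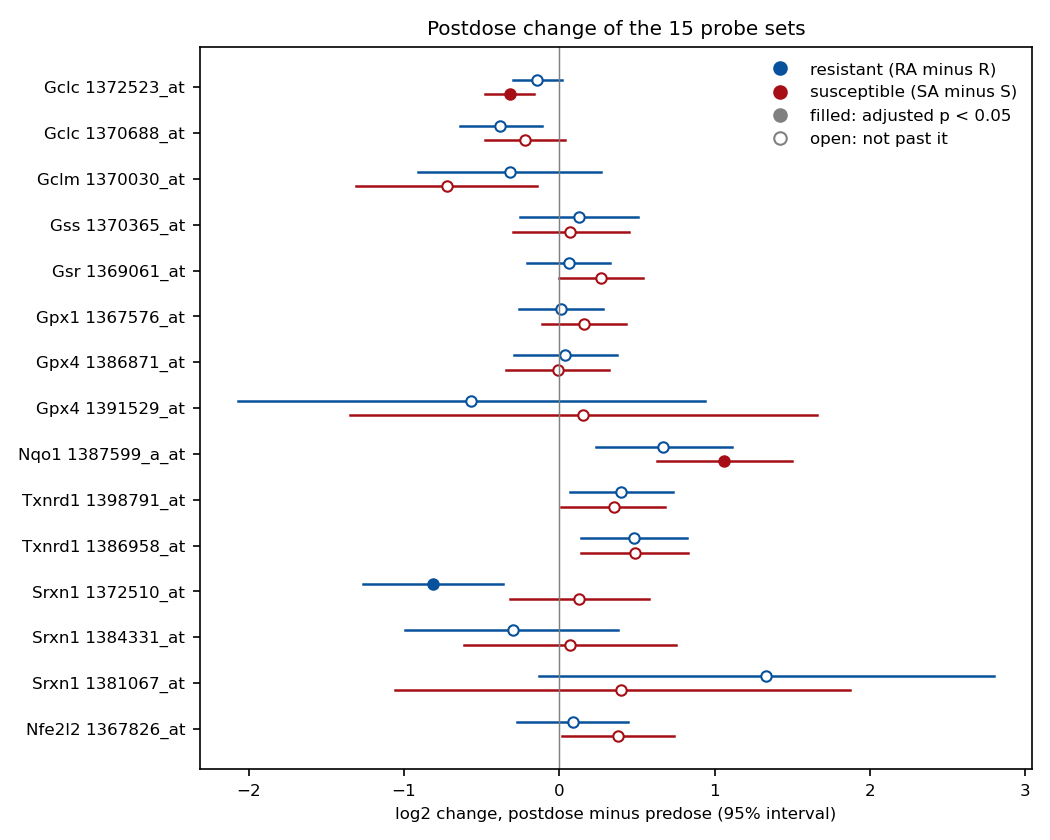
Log2 postdose change of each of the 15 probe sets in resistant (RA minus R, blue) and susceptible (SA minus S, red) rats, with 95% intervals from limma. Filled points have an adjusted p under 0.05; these are Srxn1 1372510_at in resistant rats and Nqo1 and Gclc 1372523_at in susceptible rats, and the widest intervals belong to Srxn1 1381067_at and Gpx4 1391529_at.

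Of the genes that recycle or spend glutathione, Gsr, Gpx1 and Gpx4, no probe set passed the test in either sub-group. Gsr, the reductase, had group means of 13.50 ± 0.19 (R), 13.56 ± 0.12 (RA), 13.50 ± 0.11 (S) and 13.77 ± 0.27 (SA), and SA 1 (14.10) and SA 5 (13.90) were the highest arrays. The differences were 0.06 ± 0.13 (adjusted p = 0.878) and 0.27 ± 0.13 (adjusted p = 0.258). Gpx1, the abundant cytosolic peroxidase, had means of 18.20 ± 0.09 (R), 18.21 ± 0.27 (RA), 18.20 ± 0.15 (S) and 18.36 ± 0.19 (SA), with differences of 0.01 ± 0.13 and 0.16 ± 0.13 (adjusted p = 0.982 and 0.557). Gpx4, which reduces lipid peroxides in membranes, had on 1386871_at means of 16.56 ± 0.10 (R), 16.60 ± 0.28 (RA), 16.60 ± 0.28 (S) and 16.59 ± 0.25 (SA), with differences of 0.04 ± 0.16 and -0.01 ± 0.16 (adjusted p = 0.94 and 0.979). For the last of these the 95% interval was -0.34 to 0.32, which leaves room for a change of about 1.25-fold. The second Gpx4 probe set, 1391529_at, was weak and scattered, with an SD of 1.75 among RA arrays, and its intervals of -2.07 to 0.94 and -1.35 to 1.66 set no useful limit.

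Nfe2l2, the gene of NRF2, had log2 signals of 14.22, 14.37, 14.39, 14.23 and 14.81 on R and 14.52, 14.59, 14.36, 14.39 and 14.60 on RA arrays. It had 14.05, 14.73, 13.89, 14.65 and 14.06 on S and 14.82, 14.36, 14.94, 14.65 and 14.49 on SA arrays. The S arrays fell into a lower 3 and a higher 2, and pre- and postdose arrays overlapped in both sub-groups. The differences were 0.09 ± 0.17 (adjusted p = 0.869) in resistant and 0.38 ± 0.17 (95% interval 0.02 to 0.74, adjusted p = 0.231) in susceptible rats. In order, the group means were 14.65 (SA), 14.49 (RA), 14.41 (R) and 14.28 (S), with SDs of 0.24, 0.11, 0.24 and 0.39, and the arrays of neighbouring groups in that order overlapped. The genes whose signal followed that of Nfe2l2 most closely, by Pearson's r over the 20 arrays among 11810 probe sets, were Pmepa1 (0.82), Ppp1r3b (0.82), Zfand5 (0.81) and Irf2bp2 (0.81). These points share their arrays and the 4 groups.

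As a list, the 10 genes had calls in both directions. In resistant rats 1 of the 15 probe sets passed the test, 6.67%, against 5.11% of the 30747 tested, and the members' median change was 0.04 against -0.01. In susceptible rats 2 of 15 passed, 13.3%, against 6.66%, with medians of 0.15 and 0.01. For the mean change over both sub-groups 5 of 15 passed, 33.3%, against 12.3%. At an unadjusted p under 0.05 the members numbered 5 of 15 in resistant rats (17.1% of all tested), 7 in susceptible rats (19.0%) and 7 for the mean change (23.9%). Bright probe sets pass more often, and among those with a mean signal of at least 1000 the shares were 5 of 12 members (41.7%) against 21.5% for the mean change, 2 of 12 (16.7%) against 11.8% in susceptible and 1 of 12 (8.33%) against 9.20% in resistant rats. Probe sets whose predose and postdose arrays did not overlap were 1 of 15 in resistant (Nqo1; 6.76% of all tested) and 2 of 15 in susceptible rats (Nqo1 and Gclc 1372523_at; 6.83%). Several members share a gene, so these 15 are not 15 separate observations. The calls for the mean change were Nqo1 and both Txnrd1 probe sets, which were higher, and both Gclc probe sets, which were lower.

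Between the sub-groups no member passed the test. Before dosing, the S minus R differences of the 15 probe sets lay between -0.23 and 0.30, with 0 called by limma and 0 at an unadjusted p under 0.05, against 0.00329% and 3.74% of 30416 probe sets. The predose difference was 0.01 (95% interval -0.51 to 0.53) for Nqo1 and -0.22 (-0.73 to 0.29) for Srxn1 1372510_at. After dosing, 0 of 15 passed (0.143% of 30747), and 2 had an unadjusted p under 0.05 (9.18%), the smallest being that of Srxn1 1372510_at, which was higher in SA than in RA by 0.72 ± 0.21 (unadjusted p = 0.00345, adjusted p = 0.227). The change itself differed between sub-groups in 0 of 15 after adjustment (0.00%) and in 1 at an unadjusted p under 0.05 (6.90%), again Srxn1. The test that the methods name, once adjusted, called 0 of all 30416 probe sets before and 0 of all 30747 after dosing. Its 0 calls among the members therefore add nothing. Probe sets with no overlap between the sub-groups numbered 0 of 15 before (0.529% of all tested) and 0 of 15 after dosing (2.23%).

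The surrounding pathway was read from 6 lists of 97 further genes, of which 89 had a probe set, with the brightest probe set standing for each gene. In resistant rats 4 of 89 rose and 1 fell; in susceptible rats 8 rose and 0 fell; over both together 9 rose and 3 fell. These are 5.62%, 8.99% and 13.5% of the 89 genes, beside 5.11%, 6.66% and 12.3% of all probe sets, or 6.78%, 9.82% and 15.8% of 14138 genes in fits with 1 probe set per gene, so the share of pathway genes called was near that of the array. The medians of the lists lay within -0.09 to 0.04 in resistant and -0.05 to 0.25 in susceptible rats, beside -0.01 and 0.01 for all probe sets. Of the calls named below, those of Ggt1 in resistant rats and of Slc7a11 and Taldo1 in susceptible rats also passed both in fits of only the arrays compared and under the test of the methods. The rest missed the threshold in 1 or both of these, with adjusted p from 0.0511 to 0.134 in the former and from 0.0619 to 0.167 in the latter.

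In the list of cystine uptake, glutathione supply and breakdown, 3 of 16 genes were higher and 1 lower in resistant rats, and 2 of 16 were higher in susceptible rats. Slc7a11, the subunit of the cystine importer that is itself an NRF2 target, was 10.77, 10.12, 10.76, 10.30 and 10.22 on R and 11.03, 10.88, 11.08, 11.36 and 11.47 on RA arrays. It was 10.19, 10.57, 9.97, 10.18 and 10.42 on S and 12.02, 11.56, 12.11, 11.47 and 11.63 on SA arrays. Neither sub-group overlapped between predose and postdose. SA and RA arrays overlapped only at their edges, SA 4 and RA 5 both reading 11.47, and the other SA arrays were above all RA arrays. It rose by 0.73 ± 0.17 (adjusted p = 0.0196) in resistant and by 1.49 ± 0.17, 2.81-fold (adjusted p = 8.12e-05), in susceptible rats, and the difference in change of 0.76 ± 0.25 had an adjusted p of 0.484. The resistant call was lost without R 2, R 4 or RA 5 (0.65 to 0.70, adjusted p from 0.0518 to 0.0573), and the susceptible one held without SA 1 and SA 3 (1.29, adjusted p = 0.00208).

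Ggt1, the cell-surface transferase that starts the breakdown of glutathione outside cells, rose by 0.56 ± 0.12 (adjusted p = 0.0106) and 0.50 ± 0.12 (adjusted p = 0.0173). Its susceptible call was lost without S 4, SA 1 or SA 5 (0.43 to 0.44, adjusted p from 0.0506 to 0.0541), or without SA 1 and SA 3 (0.49, adjusted p = 0.075). Oplah, which returns 5-oxoproline to glutamate, rose by 1.28 ± 0.29 (adjusted p = 0.0153) in resistant rats, with RA values of 10.37 to 10.91 above R values of 8.79 to 10.17. In susceptible rats its difference was 0.36 ± 0.29 (adjusted p = 0.577), and the difference between the changes, -0.92 ± 0.42, had an adjusted p of 0.697. Ggct, a cyclotransferase that releases 5-oxoproline, fell by 0.39 ± 0.10 on 1392541_at in resistant rats (adjusted p = 0.0245), a call lost without R 1, R 2, R 3, RA 1, RA 2 or RA 4 (-0.35 to -0.39, adjusted p from 0.0569 to 0.0708), and its other probe set, 1398107_at, differed by 0.05 ± 0.22 (adjusted p = 0.944).

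**Figure D4:**
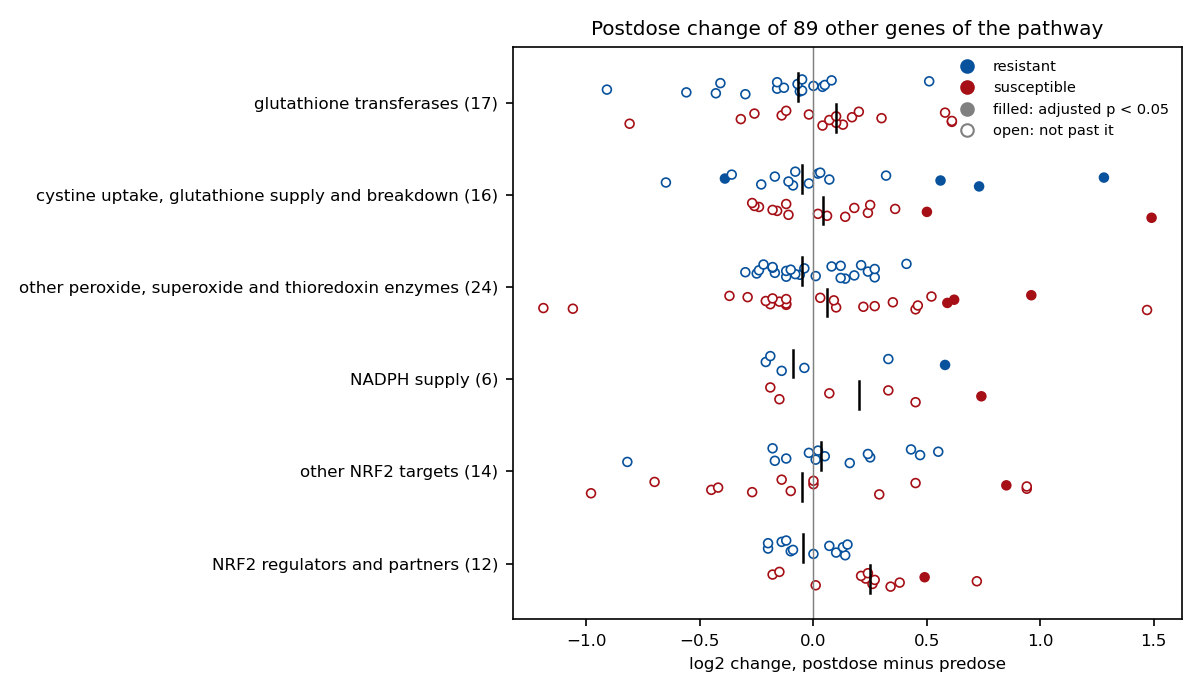
Log2 postdose change of 89 further genes of glutathione and NRF2 biology in 6 lists (number of genes in brackets), with 1 point per gene for resistant (blue) and susceptible (red) rats; filled points have an adjusted p under 0.05 and black ticks are list medians. The largest filled value is that of Slc7a11 in susceptible rats, at 1.49, and most points are open and lie on both sides of 0.

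Among 24 other enzymes of peroxide, superoxide and thioredoxin metabolism, 0 passed limma's test in resistant rats (2 at an unadjusted p under 0.05) and 3 rose in susceptible rats. Msrb1, a selenium-dependent methionine sulfoxide reductase, rose by 0.96 ± 0.20 (adjusted p = 0.00735), with S arrays at 14.96 to 15.65 and SA arrays at 15.74 to 16.81. Sod2, the mitochondrial superoxide dismutase, rose by 0.59 ± 0.11 (adjusted p = 0.00343), and Glrx, a glutaredoxin that uses glutathione to reduce protein disulfides, by 0.62 ± 0.17 on 1386908_at (adjusted p = 0.032), a call lost without S 3, S 4, S 5, SA 1 or SA 3 (0.56 to 0.63, adjusted p from 0.0536 to 0.0905). The other Glrx probe set, 1367705_at, differed by 0.58 ± 0.21 in susceptible rats and did not pass the test (adjusted p = 0.107). In resistant rats the same 3 differed by 0.41 ± 0.20, 0.24 ± 0.11 and -0.04 ± 0.17 (adjusted p = 0.316, 0.287 and 0.944). Without SA 1 and SA 3, Sod2 stayed past the threshold (0.40, adjusted p = 0.0415) and Msrb1 (0.67, adjusted p = 0.0913) and Glrx (0.48, adjusted p = 0.246) did not. A weaker probe set of Sesn1, a stress-induced sestrin, fell by 0.64 ± 0.15 in susceptible rats (1395809_at, adjusted p = 0.0129; -0.45 and 0.146 without SA 1 and SA 3), and its brighter one, 1372248_at, differed by -0.29 ± 0.12 (adjusted p = 0.202).

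Among 6 genes that supply NADPH, 1 rose in each sub-group, and it was Taldo1, the transaldolase of the pentose phosphate pathway. It rose by 0.58 ± 0.14 (adjusted p = 0.018) in resistant rats, a call lost without RA 1 or RA 5 (0.53 and 0.54, adjusted p = 0.053 and 0.0509), and by 0.74 ± 0.14 (adjusted p = 0.00298) in susceptible rats. Of 14 other NRF2 targets, 0 passed in resistant rats (1 at an unadjusted p under 0.05) and 1 in susceptible rats. That gene was Osgin1, an oxidative stress-induced growth inhibitor, which rose by 0.85 ± 0.19 (adjusted p = 0.00961; 0.64 and 0.118 without SA 1 and SA 3). Hmox1, heme oxygenase 1, differed by 0.16 ± 0.26 and 0.29 ± 0.26 (adjusted p = 0.838 and 0.617). Of 17 glutathione transferases, the enzymes that join glutathione to electrophiles, 0 passed in either sub-group under limma, and 2 in resistant and 3 in susceptible rats had an unadjusted p under 0.05. The test of the methods, once adjusted, called 0 of these 17 in either sub-group. It called only 729 of all 30747 probe sets in resistant and 578 in susceptible rats, so 0 of 17 says little.

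Among 12 regulators and partners of NRF2, 1 rose in susceptible rats and 0 passed in resistant rats, also at an unadjusted p under 0.05. Nfe2, which encodes the erythroid and platelet relative of NRF2 that binds a similar sequence, rose by 0.49 ± 0.14 (adjusted p = 0.0404), with S arrays at 16.35 to 16.65 and SA arrays at 16.70 to 17.39. That call was lost without S 2, S 3, S 4, S 5, SA 1, SA 3 or SA 5 (0.40 to 0.51, adjusted p from 0.0597 to 0.115) and under quantile normalization (0.33, adjusted p = 0.117). Keap1, the inhibitor of NRF2, differed on 1370066_at by 0.14 ± 0.12 and 0.34 ± 0.12 (adjusted p = 0.621 and 0.0986), the latter 0.32 with an adjusted p of 0.039 under quantile normalization. Its weaker probe set, 1387810_at, differed by -0.23 ± 0.26 and 0.79 ± 0.26 (adjusted p = 0.745 and 0.0859). A single probe set of 5 for Crebbp, a coactivator of NRF2, fell in resistant rats (1385852_at, -0.54 ± 0.14, adjusted p = 0.0301), a call lost without R 1, R 3, R 4, R 5, RA 3, RA 4 or RA 5 (-0.46 to -0.56, adjusted p from 0.0513 to 0.076).

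Gclm, Gpx1 and Gpx4 were also read against the summed signal of 7 reticulocyte and erythroid markers (Alas2 and others; none of the 10 genes is among them). The sum was 19.51 to 19.62 on R, 18.91 to 19.76 on RA, between 19.30 and 19.97 on S and between 19.26 and 19.79 on SA arrays, so it overlapped across the groups. Red blood cells were lysed before extraction, so the sum does not measure the reticulocytes of the blood as drawn. The part of the lysis in it was not tested. The relation was computed for the brightest probe set of each of the 10 genes, separately over the 10 predose and the 10 postdose arrays, 20 relations in all, with 2-sided permutation tests and p adjusted over the 20. Before dosing, Gclm had Pearson's r = 0.94 (permutation p = 0.00026, adjusted 0.0052) and Spearman's rho = 0.75 (permutation p = 0.0168, adjusted 0.15). Without S 4 and S 5, the arrays farthest from the median sum, r was 0.72, so much of its size rested on them. Gpx4 had r = 0.83 (permutation p = 0.00384, adjusted 0.0192) and rho = 0.61 (permutation p = 0.067, adjusted 0.268) before dosing, and r = 0.67 without S 4 and S 5.

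After dosing, Gpx4 had r = 0.87 (permutation p = 0.00254, adjusted 0.0169) and rho = 0.82 (permutation p = 0.00564, adjusted 0.113), and r = 0.90 without RA 2 and RA 3. Gpx1 had r = 0.86 (permutation p = 0.00088, adjusted 0.0088) and rho = 0.71 (permutation p = 0.0273, adjusted 0.15) after dosing, r = 0.66 without RA 2 and RA 3, and r = 0.23 before dosing (permutation p = 0.525, adjusted 0.75). Gclm had r = 0.59 after dosing (permutation p = 0.0784, adjusted 0.314). The other 16 relations did not pass after adjustment by Pearson's r, and by Spearman's rho 0 of the 20 did. Each sub-group holds 5 arrays at each time, too few for a correlation of its own. For Nqo1, r was -0.49 before and 0.13 after dosing (permutation p = 0.159 and 0.744, adjusted 0.529 and 0.915).

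**Figure D5:**
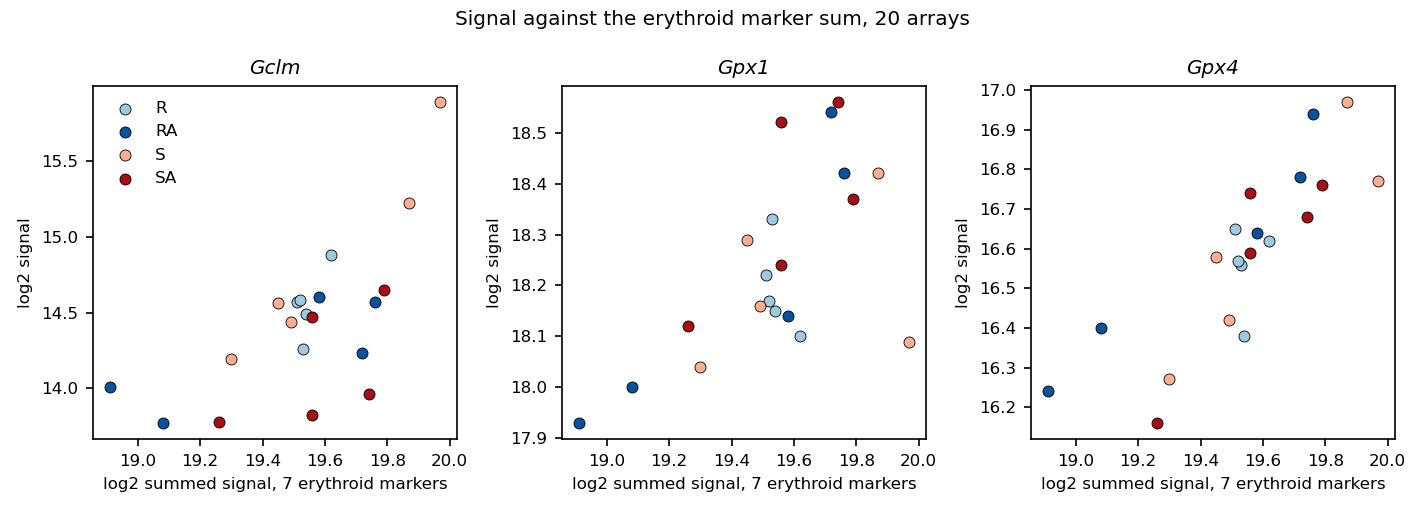
Log2 signal of Gclm, Gpx1 and Gpx4 (brightest probe set) on the 20 arrays against the log2 summed signal of 7 reticulocyte and erythroid markers, coloured by group. Gpx4 had Pearson's r = 0.83 with the sum before dosing, or 0.67 without S 4 and S 5, and 0.87 after dosing. Its Spearman's rho did not pass after adjustment at either time. The highest Gclm values, S 4 and S 5, are at the 2 highest sums.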

How the data were processed

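Total RNA from blood of 10 rats, taken before and after APAP, had been hybridized to 20 Affymetrix rat genome arrays. The methods state that red blood cells were lysed before extraction. The authors deposited 1 linear intensity per probe set and array, with array medians of 187 to 223; the software that made these values is not given in the sources used here, and the methods describe scaling of each array to a median of 1000. That scaling was applied here over 31042 probe sets, without 57 control probe sets, and log2 of the deposited intensities was taken. A probe set whose value stayed under 100 throughout a comparison was not tested in it (30416 tested before dosing, 30747 otherwise).

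Groups come from the sample labels. Comparisons used limma 3.58.1 in R 4.3.3 (lmFit, eBayes) over all probe sets with Benjamini-Hochberg adjustment and a threshold of 0.05; the predose comparison was fitted on the 10 predose arrays and the others on all 20, which then share 1 spread per probe set. p-values measure the spread between arrays, of which 5 per group limit the precision. Means and SDs are of log2 values. Symbols come from the platform annotation and were checked against the Entrez identifier, which gave the same symbol for 15 of 15 probe sets. A group of a probe set is called near background where its mean is no higher than the highest mean of the bacterial trp control probe sets.

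The genes, the 6 pathway lists and the 9 marker lists (57 of 67 marker genes on the array) were chosen with earlier results of these data known. Pathway genes named were those past the threshold in either sub-group on any probe set, at most the 4 with the largest changes in each list. Hmox1, Keap1 and Slc7a11 were to be named whatever their values. Permutation tests (100000 draws) used scipy 1.17.1 in Python 3.11.15, and figures matplotlib 3.10.9. The fit was tested on simulated data for the resistant change only, in which 200 of 30747 probe sets were changed. It made 119 calls, 12 of them false. Changes of log2 size 1 were recovered for 44 of 53 probe sets with a mean signal of at least 1000 and for 4 of 47 below it. Changes of log2 size 2 were recovered for 53 of 54 and for 6 of 46, respectively. In the data this comparison had 1570 calls, far more than were simulated, so these recoveries need not carry over. The alternatives tried were a stricter filter (mean signal of at least 200) or none, quantile normalization or no scaling, 1 probe set per gene, only the arrays compared, all 20 arrays for the predose comparison, the Welch test of the methods, the replicate number as a block, and leaving out each array in turn; leaving out SA 1 and SA 3 together was added after the data had been seen. Serum values, histology and PCR were not used here.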

Additional observations from a re-analysis of the deposited data

Results flagged for a closer look

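Of 60 groups of 5 arrays, from the 15 probe sets in 4 groups, 2 held an array whose gap to its nearest neighbour took up more of the range of the group than Dixon's 95% limit of 0.71 allows; chance alone flags about 1 group in 20. For Gss, S 3 was lowest at a log2 signal of 10.40 against 10.71 for the next S array, a gap of 0.747 of the range. For Gpx4 on 1386871_at, SA 3 was lowest at 16.16 against 16.59 for the next SA array, a gap of 0.711 of the range. SA 3 also had the lowest erythroid marker sum of the SA arrays, 19.26, and the highest liver marker sum, 14.85, and the part of either in its Gpx4 signal was not tested.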

How the results depend on the processing

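In resistant rats the count of 1 member past the threshold became 3 under quantile normalization (Nqo1 and Txnrd1 1398791_at joined), 0 with only the R and RA arrays, 0 under the test of the methods and 0 under the replicate block, and ranged from 0 to 1 over left-out arrays. In susceptible rats the count of 2 became 1 under quantile normalization, with only the S and SA arrays, under the test of the methods and with the replicate block, each time with Nqo1 kept and Gclc 1372523_at lost; it ranged from 1 to 2 over left-out arrays and was 0 without SA 1 and SA 3 together. For the mean change the count of 5 became 3 with 1 probe set per gene (fewer probe sets tested) and 2 with the replicate block (Nqo1 and Txnrd1 1386958_at), and ranged from 3 to 5 over left-out arrays, with 3 without R 1, S 4, RA 2, RA 5 or SA 3. The causes were not tested. Over all probe sets, quantile normalization took the calls from 1570 to 2097 in resistant and from 2048 to 2692 in susceptible rats. For the mean change, all calls went from 3777 to 4467 under quantile normalization and to 2987 with the replicate block. Between the sub-groups, predose, postdose and in change, the count of members past the threshold was 0 in every alternative run. Same-numbered predose and postdose arrays deviated from their group means with correlations of -0.164 to 0.196. Of 10 predose arrays, 5 correlated best with the postdose array of their own number, more than random matching among 5 arrays gives on average. These values do not settle whether equal numbers are 1 rat. The numbers were not taken to pair rats because the labels do not say so. With the replicate block the calls of Slc7a11 (adjusted p = 0.0981), Ggct 1392541_at (0.117) and Taldo1 (0.0824) in resistant and of Glrx 1386908_at (0.107) and Osgin1 (0.0639) in susceptible rats were also lost.

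Reversals of sign were confined, in the values checked, to differences that had not passed the test. Gpx4 1386871_at in susceptible rats was 0.10 and Srxn1 1384331_at was -0.20 without SA 1 and SA 3, and the Gpx4 1386871_at mean change was -0.07 under quantile normalization. Over left-out arrays, changes in resistant rats ranged from -0.15 to 0.17 (Ggct 1398107_at), -0.20 to 0.05 (Glrx 1386908_at), -0.07 to 0.08 (Gpx1), -0.04 to 0.13 (Gpx4 1386871_at), -0.94 to 0.09 (Gpx4 1391529_at) and -0.08 to 0.27 (Hmox1). In susceptible rats they ranged from -0.18 to 0.02 (Ggct 1398107_at), -0.10 to 0.09 (Gpx4 1386871_at), -0.18 to 0.64 (Gpx4 1391529_at), -0.05 to 0.72 (Srxn1 1381067_at) and -0.17 to 0.27 (Srxn1 1384331_at). The mean change ranged from -0.03 to 0.07 (Gpx4 1386871_at) and -0.40 to 0.12 (Gpx4 1391529_at), and the predose difference of Nqo1 from -0.17 to 0.11.

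Over all probe sets, calls in resistant rats went from 1570 to 955 with only the arrays compared, 729 under the test of the methods, 970 with the replicate block, 958 with 1 probe set per gene and 967 and 1046 without R 3 and RA 2; in susceptible rats from 2048 to 869, 578 and 1290 under the first 3 of these, 1332 without SA 3 and 730 without SA 1 and SA 3; for the mean change from 3777 to 2230 with 1 probe set per gene. Postdose calls between the sub-groups went from 44 to 73 under quantile normalization, 78 under the stricter filter, 0 under the test of the methods or block, between 7 and 89 over left-out arrays, and 5 without SA 1 and SA 3. The 1 predose call ranged from 0 to 2, and the 0 calls for the difference in change became 2 without R 1. Weak signals limit the second probe sets of Gpx4 and Srxn1 most.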
